A study of Mus musculus with 161 samples.

Results

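The data described here are 6 bulk RNA-seq libraries of murine bone marrow-derived macrophages (BMDMs) that received the same 2 stimuli in opposite order. They were chosen by their labels alone, as the 3 libraries of M2 → M1 macrophages and the 3 of M1 → M2 macrophages collected 72 h after the switch, out of 145 bulk RNA-seq libraries of 48 conditions and 161 samples in the whole series. BMDMs came from C57BL/6J mice aged 6 to 10 weeks and were grown throughout in 20 ng/mL macrophage colony-stimulating factor (M-CSF). From day 7 of culture, M2 → M1 cells had 25 ng/mL interleukin-4 (IL-4) for 24 h, a wash in PBS, and then 100 ng/mL lipopolysaccharide (LPS) with 25 ng/mL interferon-γ (IFN-γ) for 72 h, whereas M1 → M2 cells had LPS + IFN-γ first and IL-4 second, at the same doses. Both therefore ended at 96 h. The references at 96 h were macrophages washed at 24 h and kept in their first stimulus, M1 (n = 3) and M2 (n = 3), and M0 macrophages kept in base medium (n = 4). The labels name no transgene or deletion, and do not say whether a library came from 1 mouse or from pooled animals. Replicates are biological by their labels. The p-values below rest on a spread per gene between libraries of the same group, pooled over all 48 conditions. They do not measure the spread of the compared groups alone, and they treat the libraries as independent.

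Macrophages take on opposed programs under these stimuli. LPS acts through Toll-like receptor 4 and NF-κB, and IFN-γ acts through JAK kinases and the interferon regulatory factors. Together they switch on nitric oxide synthesis, inflammatory chemokines and cell-autonomous defence genes. IL-4 acts through STAT6 and induces arginase, lectins such as the mannose receptor, chitinase-like proteins and resistin-like molecules. Comparing cells that saw both stimuli in opposite order asks how far the transcriptome follows the stimulus in the medium and how far it retains the earlier one.

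Promoters of 6 named genes are printed first. They were picked because they carry motifs of the type bound by the factors of the 2 pathways. *Gbp2*, *Cxcl10* and *Ifit3* were higher in M2 → M1 cells, and *Itgax*, *Tmem26* and *Retnla* are genes of the IL-4 response. *Retnla* did not differ between the switches past the test. Each sequence is the 250 bases before the RefSeq start on build GRCm38.p6, 5′ to 3′ on the strand of the gene. Capitals mark an interferon-stimulated response element, GAAA and GAAA with any 2 bases between them, or the STAT6-type spacing, TTC and GAA with any 4 bases between them. An NF-κB-type motif, GGG and CC with any 5 bases between them, was searched but not capitalized. All motifs were searched on both strands, so TTTCACTTTC and TTTCAGTTTC are the response element read from the other strand.
Gbp2 (chr3:142620413-142620662, plus strand): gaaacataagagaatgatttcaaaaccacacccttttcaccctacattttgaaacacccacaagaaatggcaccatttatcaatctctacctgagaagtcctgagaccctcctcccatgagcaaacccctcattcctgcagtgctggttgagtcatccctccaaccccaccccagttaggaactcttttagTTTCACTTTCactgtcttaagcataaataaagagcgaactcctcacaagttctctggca
Cxcl10 (chr5:92348890-92349139, minus strand): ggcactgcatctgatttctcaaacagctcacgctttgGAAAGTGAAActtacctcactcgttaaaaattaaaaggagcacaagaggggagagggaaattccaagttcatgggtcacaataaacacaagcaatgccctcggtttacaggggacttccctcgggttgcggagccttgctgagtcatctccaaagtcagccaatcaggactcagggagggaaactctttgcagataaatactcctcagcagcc
Ifit3 (chr19:34583279-34583528, plus strand): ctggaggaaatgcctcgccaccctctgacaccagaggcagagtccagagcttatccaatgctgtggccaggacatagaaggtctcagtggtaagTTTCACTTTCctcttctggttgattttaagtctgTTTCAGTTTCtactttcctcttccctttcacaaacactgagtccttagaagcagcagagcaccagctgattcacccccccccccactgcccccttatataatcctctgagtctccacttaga
Itgax (chr7:128129300-128129549, plus strand): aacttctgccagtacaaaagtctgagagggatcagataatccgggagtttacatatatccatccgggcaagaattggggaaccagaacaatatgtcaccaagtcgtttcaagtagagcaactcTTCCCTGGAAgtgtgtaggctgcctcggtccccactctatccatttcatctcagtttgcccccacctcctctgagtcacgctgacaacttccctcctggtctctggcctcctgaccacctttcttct
Tmem26 (chr10:68723496-68723745, plus strand): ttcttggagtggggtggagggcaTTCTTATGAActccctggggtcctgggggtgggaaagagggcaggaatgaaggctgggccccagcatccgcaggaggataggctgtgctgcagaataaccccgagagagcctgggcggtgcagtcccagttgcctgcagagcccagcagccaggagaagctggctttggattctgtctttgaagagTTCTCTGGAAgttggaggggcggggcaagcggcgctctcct
Retnla (chr16:48842359-48842608, plus strand): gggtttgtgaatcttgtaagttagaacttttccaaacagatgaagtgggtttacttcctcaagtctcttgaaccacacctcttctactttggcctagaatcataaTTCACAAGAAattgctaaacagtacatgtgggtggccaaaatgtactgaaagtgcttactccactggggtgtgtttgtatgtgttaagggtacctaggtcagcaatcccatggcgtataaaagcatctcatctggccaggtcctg

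The response element began 59 bases before the start of *Gbp2* and 213 bases before that of *Cxcl10*, and *Ifit3* held 2, beginning 156 and 122 bases before its start. The STAT6-type spacing began 127 bases before the start of *Itgax*, 145 bases before that of *Retnla*, and 227 and 41 bases before that of *Tmem26*. Of all 32851 promoter windows of this length, 2.98% held the response element, 5.85% the STAT6-type spacing and 45.8% the NF-κB-type motif. Counted over 27025 genes the shares were 3.46%, 6.76% and 48.7%. Among the guanylate-binding proteins and immunity-related GTPases, 10 of the 11 genes with a RefSeq promoter (90.9%) held the response element, as did 7 of 22 interferon-stimulated antiviral genes (31.8%). The STAT6-type spacing was present in 4 of 20 IL-4 response effectors (20%). Of the 10 genes named below for the largest falls in M2 → M1, 2 held this spacing (20%). Of the 10 named for the largest rises, 7 had a RefSeq promoter, and 4 of these held the response element (57.1%). A match describes these letters and not a bound site.

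FPKM summed over the 8307 genes of the table ran from 354027 to 528763 in the 16 libraries used at 96 h, with 7950 to 8095 genes at 1 FPKM or more, and no pair of libraries held identical values. The values carry no read counts, so the sequencing depth behind each is unknown. The cells had the profile of macrophages in both switches: 19 core macrophage genes summed to between 12100 and 16500 FPKM in M2 → M1 and between 12900 and 14600 FPKM in M1 → M2 libraries. Neutrophil and precursor markers summed to 37.7 to 135 FPKM against 6.34 to 33.6 FPKM, and 9 of the 12 measured averaged below 1 FPKM in each switch. Of the 12, *Lcn2* and *S100a8* were higher in M2 → M1 by 3.36 and 1.9 on the log2 scale. The other 10, among them the granule genes *Elane*, *Mpo*, *Prtn3*, *Ctsg* and *Ngp*, did not differ past the test. The 3 measured fibroblast markers summed to 0.787 to 14.4 FPKM and 0.427 to 2.85 FPKM. Of the 5 osteoclast markers measured, *Acp5*, *Ocstamp* and *Atp6v0d2* were lower and *Ctsk* higher in M2 → M1 cells, and the sum was 150 to 157 FPKM against 494 to 715 FPKM. *Pf4* and *Ppbp*, platelet chemokines, were lower by 2.4 and 1.33, and the summed megakaryocyte markers were 60.3 to 125 FPKM against 331 to 652 FPKM. *Pecam1*, an endothelial marker, was lower by 1.65. *Ighm* and *Clec9a*, the only B cell and dendritic cell markers measured, stayed below 1 FPKM in both switches, and no T or NK cell, erythroid or mast cell marker was in the table. Among the references, *Ighm* was at 12.2 to 17 FPKM in M2 and 56 to 79.9 FPKM in M0 libraries. The fibroblast markers summed there to 5.24 to 18.8 FPKM and 27.9 to 217 FPKM. The part of other cell types in the results was not tested. In bulk RNA, fewer cells of a type and less RNA per cell cannot be told apart.

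Replicate number left a trace. After group means were removed, 45% of the variance over the 12 stimulated libraries at 96 h lay on 1 component, on which the libraries labelled replicate 1 were positive in all 4 groups (0.169 to 0.535) and replicates 2 and 3 negative. Counts are therefore given below with and without replicate 1 where leaving it out matters.

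The order of the stimuli left a broad difference. With limma on log2(FPKM + 1), 3461 of 8307 genes (41.7%) differed between M2 → M1 and M1 → M2 macrophages at a Benjamini-Hochberg adjusted p below 0.05. Of these, 1812 (21.8% of all genes) were higher in M2 → M1 and 1649 (19.9%) were lower. Differences are given throughout as log2 of FPKM + 1 with their standard error (SE), M2 → M1 minus M1 → M2 unless another contrast is named, and they understate the change of genes near 0 FPKM. The median over all genes was 0, the median size 0.32, and 1033 genes changed by over 2-fold, 615 upward and 418 downward. After quantile normalization the split was 1608 higher and 2212 lower, so the balance of directions depends on scaling. Leaving out 1 replicate number or 1 library gave 2700 to 3274 genes, and 2819 without replicate 1.

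Genes induced by LPS and IFN-γ were among the largest rises. *Nos2*, the inducible nitric oxide synthase, stood at 835, 374 and 240 FPKM in the M2 → M1 libraries and at 1.47, 0.98 and 0.703 FPKM in the M1 → M2 libraries. The difference was 7.7 (SE 0.36, adjusted p = 2.7e-36, n = 3 and 3). *Ly6a*, which encodes the surface protein Sca-1, showed the largest rise among genes of at least 20 FPKM, at 894, 1320 and 1240 FPKM against 2.49, 0.614 and 1.11 FPKM. It differed by 8.96 (SE 0.3, adjusted p = 1.2e-48). For both genes the lowest M2 → M1 library lay far above the highest M1 → M2 library. The rule for the largest rises admitted only genes without overlap. *Gbp2*, a guanylate-binding GTPase that acts on pathogen-containing vacuoles, was at 2360, 1990 and 1760 FPKM against 9.77, 10.7 and 9.68 FPKM. *Cxcl10*, a T cell chemoattractant, was at 231, 222 and 188 FPKM against 0.169, 0.598 and 0.34 FPKM. *Fpr2*, a formyl peptide receptor, was at 314, 268 and 206 FPKM against 1.66, 0.682 and 0.188 FPKM. These 3 genes were thus abundant after one order and close to the floor after the other, with differences of 7.52, 7.3 and 7.22. *Gbp4*, *Gbp5*, *Ifit3*, *Serpina3g* and *Ly6c1* completed the 10 largest rises, between 6.21 and 6.88. *Gbp2* and *Gbp5*, *Ly6a* and *Ly6c1*, and *Serpina3g* have close paralogs, among which reads may have been split.

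Genes induced by IL-4 were among the largest falls. *Itgax*, the integrin CD11c, was at 2.84, 1.23 and 1.68 FPKM in M2 → M1 and 87.1, 113 and 94.9 FPKM in M1 → M2 libraries, a difference of -5.12 (SE 0.32, adjusted p = 1.9e-27). *Egr2*, a transcription factor induced by IL-4, was at 2.13, 0.932 and 1.1 FPKM against 62.6, 82.1 and 72.4 FPKM, a difference of -4.97 (SE 0.38, adjusted p = 7.8e-22). Neither gene overlapped between the switches, which the rule that named them required. Of all 8307 genes, 4263 did not overlap. *Tfrc*, the transferrin receptor, was at 6.61, 8.06 and 14.7 FPKM against 172, 275 and 296 FPKM. *Mrc1*, the mannose receptor, was at 5.53, 41.2 and 25.1 FPKM against 263, 386 and 343 FPKM. *Chi3l3*, the chitinase-like protein Ym1, was at 213, 189 and 185 FPKM against 3470, 2990 and 2130 FPKM. All 3 fell clearly (-4.56, -4.09 and -3.84), but *Chi3l3* remained well expressed in every M2 → M1 library. *Angptl2*, *Slco2b1*, *Atp6v0a1*, *Serpinb9b* and *Tmem26* had differences between -4.35 and -3.33.

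**Figure D1:**
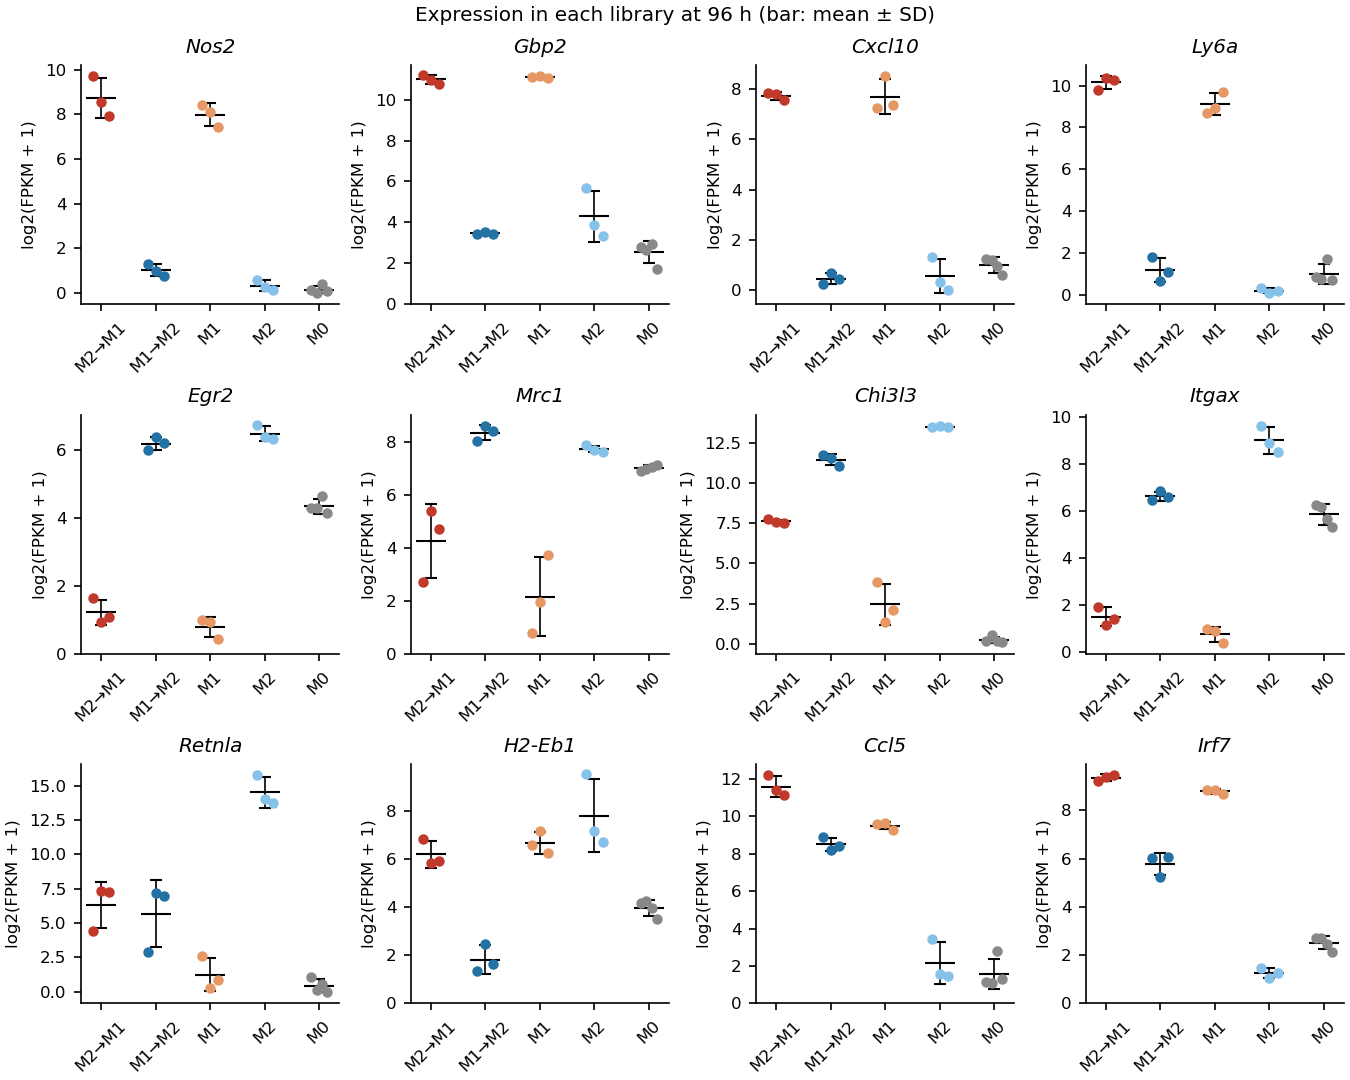
Expression of 12 genes in each 96 h library, as log2(FPKM + 1) on the vertical axis, for M2 → M1, M1 → M2, M1, M2 and M0 macrophages. Points are libraries and bars are the mean ± SD. *Nos2*, *Gbp2*, *Cxcl10* and *Ly6a* are high in M2 → M1 and M1 libraries alone, whereas *Retnla* lies between 6.33 and 156 FPKM in the 6 switched libraries and between 13500 and 55600 FPKM in the M2 libraries.

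Some textbook markers separated the switches less well. *Arg1*, arginase 1, was at 195, 547 and 367 FPKM in M2 → M1 and 687, 1870 and 1770 FPKM in M1 → M2 libraries, a difference of -1.95 (SE 0.54, adjusted p = 0.0018). All of these lay above the M0 libraries, the highest of which had 7.16 FPKM. *Tnf*, tumour necrosis factor, was at 37.4, 26.5 and 52.8 FPKM against 11.1, 4.9 and 7.13 FPKM (2.2, SE 0.5, adjusted p = 0.00013). *Pparg*, a lipid-activated nuclear receptor, was at 3.8, 12.4 and 12.3 FPKM against 32.3, 48.8 and 46.5 FPKM (-2.18, SE 0.37, adjusted p = 4.2e-07). *Myd88*, the Toll-like receptor adaptor, was at 40.3 to 48.6 FPKM against 21.1 to 21.9 FPKM (1.05, SE 0.16, adjusted p = 2e-08). *Nfkb1*, an NF-κB subunit, went the other way, at 30.7 to 32.7 FPKM against 46.1 to 57 FPKM (-0.63, SE 0.19, adjusted p = 0.0045), a call that was lost without replicate 1 (-0.5, adjusted p = 0.086). *Stat6*, which carries the IL-4 signal, did not pass the test (0.17, SE 0.1, adjusted p = 0.15). *Retnla*, the resistin-like molecule Fizz1 and a standard M2 marker, did not pass it either: it stood at 20.3, 156 and 151 FPKM in M2 → M1 and 6.33, 147 and 122 FPKM in M1 → M2 libraries (0.65, SE 0.66, adjusted p = 0.46). In both switches replicate 1 was the low library, and without M1 → M2 replicate 1 the sign of *Retnla* turned (-0.75).

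The lists below follow the roles in the pathway, and their counts stand against 21.8% of all genes higher and 19.9% lower. Of 11 receptors, JAKs and STATs of the interferon pathway, 7 were higher and 1 lower in M2 → M1, with a median of 0.44. *Stat2* (2.37) and *Stat3* (1.37) rose, *Irf9* rose by 0.72 on the log2 scale, and the receptor chain *Ifngr1* fell (-0.45). Of 6 interferon regulatory factors, 5 rose, with *Irf1* at 4, *Irf7* at 3.57 and *Irf8* at 1.93. All 16 measured guanylate-binding proteins and immunity-related GTPases were higher, with a median of 5.32, as were all 29 measured interferon-stimulated antiviral genes, with a median of 3.11. *Ifit3* (6.41), *Ifit2* (5.91), *Cmpk2* (5.43) and *Ifit1* (5.23) led the antiviral genes and *Eif2ak2* (0.85), the double-stranded RNA-activated kinase, changed least. Both counts were unchanged by quantile normalization, by rescaling and without replicate 1. MHC class I processing had 13 of 14 members higher, led by the peptide transporter *Tap1* (3.3), and *H2-D1* did not pass (0.81, adjusted p = 0.4).

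Of 18 LPS receptor, adaptor and NF-κB genes, 9 were higher and 2 lower, with a median of 0.45, beside 21.8% and 19.9% of all genes. *Ticam2* (1.9) and *Irak2* (1.03) rose, and *Ikbkg* (-0.64) fell with *Nfkb1*. Of 21 inflammatory cytokines and chemokines, 11 were higher and none lower. *Cxcl10* (7.3), *Cxcl11* (3.21), *Ccl5* (3.08) and *Cxcl16* (2.78) rose most, whereas *Il1b* (1.41, adjusted p = 0.12), *Il6* (0.08), *Il12b* (0.17) and *Ccl7* (-0.4) did not pass. Of 16 M1 effector enzymes and receptors, 13 rose. They included *Irg1* (6.17), which makes itaconate, and the costimulatory receptor *Cd86* (4.05), and the arginine transporter *Slc7a2* fell (-1.74). Of 16 negative feedback genes 8 rose, led by *Socs3* (4.12), the checkpoint ligand *Cd274* (2.64) and *Nfkbia* (2.39), and *Dusp2* fell (-0.8).

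The IL-4 arm was less uniform. Of 31 measured IL-4 response effectors, 18 were lower and 5 higher in M2 → M1, with a median of -1.07. Besides the genes above, *Pdcd1lg2* (-3.27), *Mgl2* (-2.79), *Clec10a* (-2.76) and *Ear2* (-2.58) fell. The 5 that rose were *Ccl24* (1.87), *Ctsk* (1.38), *Ear11* (1.04), the transglutaminase *Tgm2* (0.98) and *Flt1* (0.92). Of 12 transcription factors that IL-4 induces, 5 fell, among them *Egr2*, *Myc* (-2.97) and *Bhlhe40* (-2.54), and *Cebpb* (0.84) and *Maf* (0.82) rose. The IL-4 receptor genes themselves were not lower: 6 of 7 were higher in M2 → M1, including *Il4ra* (2.47), *Il13ra1* (2.2) and *Il2rg* (1.81).

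Metabolic and growth lists are again set against 21.8% of all genes higher and 19.9% lower. Of 22 cholesterol synthesis genes, 12 were lower in M2 → M1 and none was higher (median -0.64), with *Sqle* (-1.73), *Idi1* (-1.44) and *Hmgcs1* (-1.22) among them. Of 9 targets of the oxysterol receptor LXR, 5 were higher and none lower, including the apolipoprotein *Apoc2* (3.71) and the exporter *Abca1* (1.36). Against M0, 5 of the 9 were lower and 2 higher in M2 → M1 (median -0.79). In M1 → M2, 6 were lower than in M0 and none higher (median -1.2). Between the switches, 3 of the 9 had libraries without overlap. Fatty acid uptake and oxidation had 7 of 15 lower, among them *Angptl4* (-2.24) and *Cd36* (-1.68), and 1 higher, *Fabp5* (1.75). Of 17 glycolysis genes 5 were higher, led by *Pfkfb3* (2.59), and 7 of 26 TCA cycle and oxidative phosphorylation genes were lower and 1 higher. Of 10 NRF2 targets 3 were lower, including *Txnrd1* (-1.23), and *Gsr* was higher (1.34). Of 33 S phase genes 14 were lower (median -0.38), with *Rrm2*, a subunit of ribonucleotide reductase, falling most (-1.24), and 5 of 46 G2 and M phase genes were lower. Only 3 of the 33 and 0 of the 46 had libraries without overlap between the switches, beside 4263 of all 8307 genes. Replicate 1 had the lowest S phase median in both switches (-0.99 in M2 → M1 and -0.51 in M1 → M2, relative to M0). Amino acid and ER stress genes went both ways, 3 of 14 higher and 4 lower, as did lysosomal genes, 6 of 28 higher and 9 lower, and ribosomal proteins, 4 of 23 higher and 2 lower. The shares called of glycolysis, TCA cycle, NRF2, lysosomal and ribosomal genes were close to or below those of all genes or moderately above them, and nothing particular to these lists is read from them. For ribosomal proteins the direction rests on scaling, since quantile normalization gave 3 higher and 8 lower.

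Of 19 core macrophage genes 8 were higher and 5 lower, beside 21.8% and 19.9% of all genes. The high-affinity Fc receptor *Fcgr1* (3.58), *Aif1* (3.18) and the efferocytosis receptor *Mertk* (2.17) rose, and the inhibitory Fc receptor *Fcgr2b* (-1.99) and *Cd68* (-1.03) fell. Of 10 chemokine receptors and migration genes, 4 rose, among them *Fpr2*, *Fpr1* (5.87) and *Ccr1* (0.96), and *Ccr3* (-2.77) and *C5ar1* (-0.95) fell. Of 17 matrix genes 5 rose, among them *Timp1* (2.14) and *Mmp14* (2.06), and 3 fell, among them the metalloproteases *Mmp12* (-2.8) and *Mmp13* (-2.32). The shares of core macrophage, migration and matrix genes that were lower were close to that of all genes.

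The difference between the switches was then set beside that between macrophages kept in M1 or M2 for 96 h. These groups share no library with the switched ones. Unswitched M1 and M2 differed in 4484 genes (54%). Of the 3461 genes of the switched comparison 75.2% were also called there, and of the 4484 genes 58% were called in the switched comparison. Among the 2601 genes called in both, 2489 had the same sign by the stimulus in the medium and 112 (4.31%) the opposite sign. The difference of the differences, switched minus unswitched, passed the test in 1575 genes (19%), 861 higher (10.4%) and 714 lower (8.6%). It rested on the libraries more than the switched and the unswitched count did: 691 genes passed without replicate 1 and 1038 without replicate 2.

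By list, 22 of 31 IL-4 effectors had a positive difference of the differences and 1 a negative one (median 2.65), against 10.4% and 8.6% of all genes. *Retnla* (13.91), *Ear11* (11.8), *Ccl24* (9.09), *Fn1* (7.53), *Chi3l3* (7.21) and *Mgl2* (7.11) were the largest. Antiviral genes went the other way, 15 of 29 negative and 1 positive (median -0.82), as did 8 of 16 GTPase genes (median -1.28). *Saa3* (-5.31), *Ccl5* (-4.27), *Irf7* (-3.96), *Rtp4* (-3.82), *Stab1* (-3.75) and *Ccl12* (-3.49) were the most negative genes named by rule. The call of *Ccl12* was lost without replicate 1 (-2.92, adjusted p = 0.13). Cholesterol synthesis genes were positive in 10 of 22. Without replicate 1 the counts were 19 IL-4 effectors, 8 antiviral genes, 6 GTPase genes and 7 cholesterol genes. For *Nos2* the 2 differences were 7.7 and 7.66, and their difference did not pass (0.04, SE 0.51, adjusted p = 0.97).

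**Figure D2:**
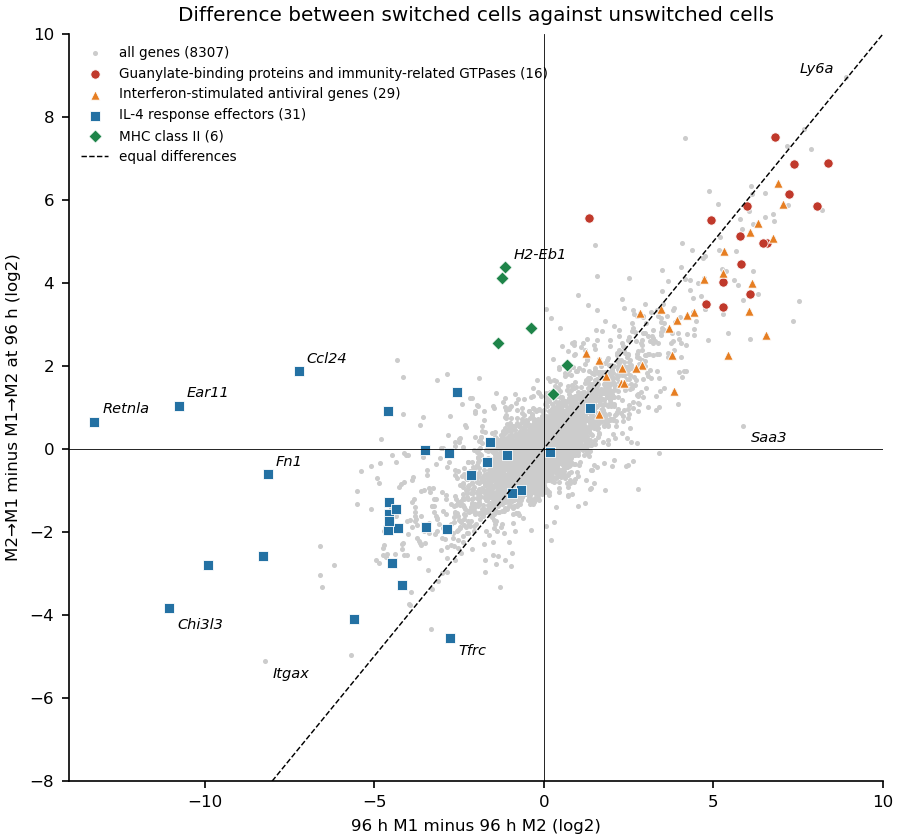
Log2 difference of each of 8307 genes between the switches at 96 h (vertical, M2 → M1 minus M1 → M2) against that between unswitched cells (horizontal, M1 minus M2). The dashed line marks equal differences. The 16 guanylate-binding and immunity-related GTPase genes and the 29 antiviral genes lie in the upper right, the 31 IL-4 effectors lie mostly nearer 0 on the vertical than on the horizontal axis, and the 6 MHC class II genes lie above the line.

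The gap between the switches was narrower than that between unswitched cells, and unequally so. The Jensen-Shannon distance on log10(FPKM + 1), scaled to proportions, averaged 0.106 over the 9 pairs of M2 → M1 and M1 → M2 libraries (0.0994 to 0.118) and 0.145 over the 9 pairs of M1 and M2 libraries (0.14 to 0.152). Libraries of 1 group were 0.0415 to 0.0532 apart on average. M2 → M1 cells were 0.0611 from M1 and 0.139 from M2, whereas M1 → M2 cells were 0.0805 from M2, 0.0848 from M0 and 0.109 from M1. On a line from the M2 mean (0) to the M1 mean (1), the M2 → M1 libraries lay at 0.96, 0.92 and 0.929 (0.936 ± 0.021, SD, n = 3). The M1 → M2 libraries lay at 0.418, 0.311 and 0.343 (0.357 ± 0.0549, SD, n = 3), close to the M0 libraries (0.322 ± 0.0284, SD, n = 4). These positions depend on the scale. On linear FPKM the means were 1 for M2 → M1, 0.85 for M1 → M2 and 0.865 for M0, and the M2 libraries that fix the 0 of that line were themselves at -0.633, 0.277 and 0.357.

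Measured against unswitched M1, M2 → M1 cells differed in 999 genes (12%), 608 higher (7.32%) and 391 lower (4.71%). After quantile normalization the split was 524 higher and 642 lower, and with replicate number as a block 1597 genes passed. The count fell to 366 without replicate 1 and 306 without replicate 2. Of the 159 genes past 2-fold, 145 were higher and 14 lower. Measured against unswitched M2, M1 → M2 cells differed in 1790 genes (21.5%), 979 higher (11.8%) and 811 lower (9.76%), with 924 without replicate 1. Of 479 genes past 2-fold, 246 were higher and 233 lower. Each of these comparisons shares libraries with both differences above. The 2 counts were not tested against each other.

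Several genes induced by IL-4 were higher in M2 → M1 than in unswitched M1 cells. *Chi3l3* was at 213, 189 and 185 FPKM after the switch and at 13.4, 1.63 and 3.37 FPKM in M1 cells that never saw IL-4, a difference of 5.16 (SE 0.41, adjusted p = 8.4e-19). The M2 libraries held 11200 to 12100 FPKM, and cells returned from M2 to base medium averaged 61.8 FPKM. *Retnla*, at 20.3, 156 and 151 FPKM, exceeded M1 (5.03, 0.214 and 0.806 FPKM) by 5.08 (SE 0.66, adjusted p = 3.4e-09). *Arg1* exceeded M1 by 2.18 (adjusted p = 0.0026), *Mrc1* by 2.11 (adjusted p = 0.00093) and *Mgl2* by 2.71 (adjusted p = 3.1e-12). The libraries of *Arg1* and *Mrc1* overlapped with M1, whose replicate 3 held 343 FPKM of *Arg1*, and M1 cells at 24 h averaged 390 FPKM of *Arg1* without IL-4. In M2 → M1 cells *Arg1* had fallen to 264 FPKM at 12 h before 653 FPKM at 24 h, and *Mrc1* to 12.2 FPKM at 24 h before 23.9 FPKM at 72 h. Of the 31 IL-4 effectors, 13 were higher than in M1 and 1, *Tfrc*, was lower (median 0.94), against 7.32% of all genes higher. Without replicate 1 there were 10 higher. *Tfrc* fell below both unswitched groups: 6.61, 8.06 and 14.7 FPKM after the switch against 27.4 to 36.2 FPKM in M1 and 169 to 276 FPKM in M2 (-1.7 from M1, SE 0.34, adjusted p = 0.00013). When the fit held only the M2 → M1 and M1 libraries, 40 genes passed, and neither *Retnla* (adjusted p = 0.092) nor *Tfrc* (adjusted p = 0.073) was among them.

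Of the 29 antiviral genes 15 were higher in M2 → M1 than in 96 h M1 cells and none lower (median 0.72), and 14 did not pass. Of all genes, 7.32% were higher and 4.71% lower. The other interferon lists stood close to these shares, and nothing particular to them is read from their counts. Of the 16 GTPase genes 1 was higher and 1 lower (median 0.02), as in the 14 MHC class I genes, and 1 of 11 receptors, JAKs and STATs and 0 of 6 interferon regulatory factors were higher. *Isg15*, a ubiquitin-like modifier, was at 280, 376 and 471 FPKM against 126, 189 and 135 FPKM (1.31, adjusted p = 0.0048), and *Ifit1* at 185, 207 and 236 FPKM against 101, 82.4 and 79.4 FPKM (1.25, adjusted p = 0.0028). The 2 groups had spent 72 h and 96 h in LPS + IFN-γ. Against M1 cells at 48 h in place of 96 h, none of the 29 was higher and 2 were lower (median -0.11). *Ccl5*, a chemokine for T cells and monocytes, was at 4780, 2710 and 2250 FPKM in M2 → M1 against 786, 799 and 624 FPKM in 96 h M1 (2.07, SE 0.6, adjusted p = 0.013), while M1 cells averaged 4920 FPKM at 48 h. The largest rises over M1 outside the IL-4 effectors were *Gbp2b* (3.87), *Slfn4* (3.71), *Timp1* (3.63) and *Ms4a8a* (3.03). *Gbp2b* was at 23.6, 83.2 and 55.9 FPKM against 1.31, 1.63 and 5.21 FPKM, and M1 cells averaged 14.3 FPKM at 48 h. *Ms4a8a*, a membrane protein of the CD20 family, was at 4.47, 41.7 and 21.6 FPKM and no higher than 2.02 FPKM in any M1, M2 or M1 → M2 library at 96 h. Ribosomal proteins had 11 of 23 higher and none lower than in M1, beside 7.32% and 4.71% of all genes. Of these 11, 1 was left without replicate 1. Next to *Tfrc*, the largest falls below M1 among the genes named by rule were *Serpina3f* (-1.2), *Stab1* (-1.11), *Ifi27* (-1.06), *Cd14* (-1.02) and *Cyb5r1* (-1). These calls were not stable. Without replicate 2 *Serpina3f*, *Stab1*, *Ifi27* and *Cyb5r1* lost theirs (adjusted p 0.21, 0.14, 0.11 and 0.1), and without replicate 1 *Serpina3f*, *Stab1* and *Cd14* did (adjusted p 0.087, 0.063 and 0.06). Without replicate 3 *Stab1* and *Cd14* did (adjusted p 0.11 and 0.085). *Ifi27* showed no fall against M1 at 48 h (0.01).

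Compared with unswitched M2, M1 → M2 cells were higher in many interferon genes and lower in many IL-4 effectors. *Irf7*, the master regulator of type I interferon genes, was at 64.8, 37 and 66.4 FPKM against 1.78, 1.07 and 1.4 FPKM in unswitched M2, a difference of 4.52 (SE 0.22, adjusted p = 2.5e-34). It stood at 464, 456 and 411 FPKM in M1 and averaged 92.1 FPKM in cells returned from M1 to base medium. *Ccl5* was at 476, 293 and 343 FPKM against 9.92, 2.02 and 1.74 FPKM (6.34, SE 0.6, adjusted p = 1.1e-15). *Saa3*, an acute-phase protein, was at 203, 462 and 305 FPKM against 6.24, 4.05 and 3.02 FPKM (5.86, adjusted p = 5e-14) and did not pass the test between the switches (0.56, adjusted p = 0.49). *Ly6e* (4.21), *Rtp4* (4.19) and *Ccl12* (4.61) were likewise above M2. All 6 also passed the test against 96 h M0. Of the 29 antiviral genes 28 were higher than in M2, with a median of 1.72, and the remaining one, *Samhd1*, did not pass (-0.23, adjusted p = 0.6). Of the 16 GTPase genes 11 were higher (median 1.15). Both shares stood against 11.8% of all genes, and 27 antiviral genes were higher without replicate 1. In the same libraries *Gbp2* was at 9.77, 10.7 and 9.68 FPKM against 50.4, 13.7 and 8.99 FPKM and did not differ past the test (-0.83, adjusted p = 0.24).

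Of the 31 IL-4 effectors 20 were lower in M1 → M2 than in M2 and 1 higher (median -1.56). *Retnla* was lowest relative to M2 after *Ear11*, at 6.33, 147 and 122 FPKM against 55600, 16700 and 13500 FPKM (-8.83, SE 0.66, adjusted p = 1.6e-21). *Ear11*, an eosinophil-associated ribonuclease, was at 0.352, 3.28 and 4.54 FPKM against 3390, 1630 and 1390 FPKM (-9.28, SE 0.35, adjusted p = 1.2e-43). *Ccl24*, an eosinophil chemoattractant, was at 0.117, 0.351 and 0.321 FPKM against 325, 131 and 92.8 FPKM (-6.99, SE 0.46, adjusted p = 9.6e-25). For *Retnla* and *Ear11* the M1 → M2 and M2 → M1 libraries overlapped, and for *Ccl24* every M1 → M2 library lay below every M2 → M1 library, although only M1 → M2 cells had IL-4 in the medium. The fibronectin gene *Fn1* (-5.84) and the lectin *Mgl2* (-4.4) followed, and *Chi3l3* was also lower (-2.05, adjusted p = 3.7e-05). *Egr2* (-0.29), *Mrc1* (0.62), *Tfrc* (0.1), *Atp6v0a1* (-0.08) and *Arg1* (-0.47) did not differ from M2 past the test, and *Angptl2* exceeded it (0.7, adjusted p = 0.026). Of 22 cholesterol synthesis genes 16 and of 14 amino acid and ER stress genes 12 were lower than in M2, none higher, against 9.76% of all genes. Against M2 at 48 h the counts were 16 and 8, with 1 stress gene higher.

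**Figure D3:**
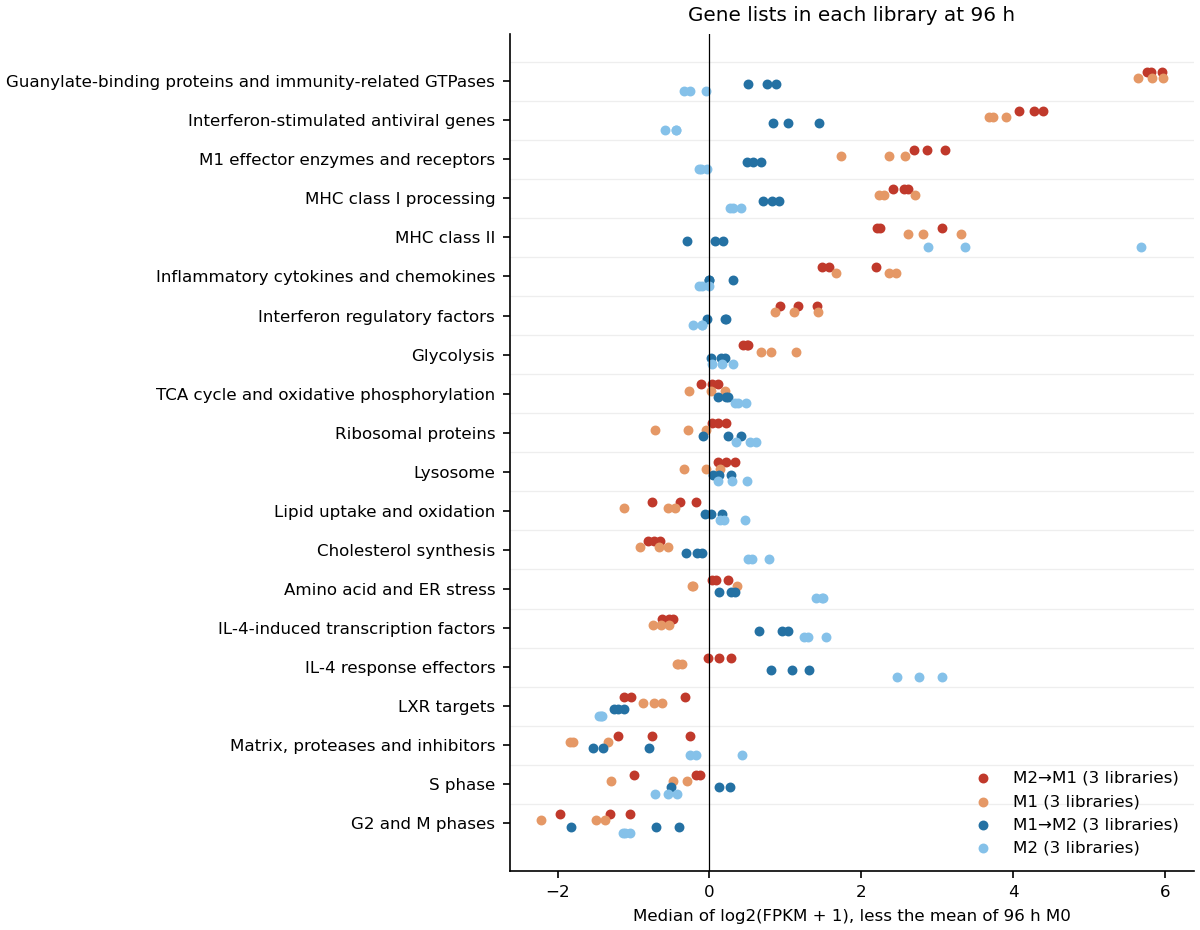
Median of each of 20 gene lists in each 96 h library, as log2(FPKM + 1) less the mean of the M0 libraries, with 1 point per library. Antiviral genes lie at 4.08 to 4.39 in M2 → M1, 3.68 to 3.91 in M1, 0.84 to 1.45 in M1 → M2 and -0.58 to -0.44 in M2 libraries, and IL-4 effectors at -0.02 to 0.28, -0.42 to -0.36, 0.81 to 1.31 and 2.47 to 3.06.

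MHC class II, which presents peptides to CD4+ T cells, was measured by 6 genes. *H2-Eb1*, a class II β chain, was at 114, 56 and 59.2 FPKM in M2 → M1 and 1.53, 4.58 and 2.11 FPKM in M1 → M2 libraries (4.38, SE 0.36, adjusted p = 1.4e-19). Unswitched M1 held 95.7, 143 and 74.4 FPKM, unswitched M2 741, 144 and 103 FPKM, and M0 between 10.5 and 18.1 FPKM. M1 → M2 was thus the low group, below M0 as well for this gene (-2.16, adjusted p = 1.6e-07). *H2-Aa*, the α chain, was at 242, 112 and 118 FPKM against 6.97, 9.57 and 6.41 FPKM (4.12, adjusted p = 3.5e-17). *Cd74*, the invariant chain, was at 831, 405 and 404 FPKM against 99.2, 92.1 and 72 FPKM (2.55, adjusted p = 5.2e-09). All 6 measured class II genes were higher in M2 → M1, beside 21.8% of all genes. All 6 were lower in M1 → M2 than in M2 (median -4.5), beside 9.76% of all genes. None differed between M2 → M1 and M1 past the test, beside 12% of all genes called, although 2 were lower after quantile normalization. Cells returned from M1 to base medium averaged 3.35 FPKM of *H2-Eb1*, beside 2.74 FPKM in M1 → M2.

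Between unswitched cells 54% of all genes were called. There 3 of the 6 class II genes, *H2-Eb1*, *H2-Aa* and *Cd74*, had the opposite sign (-1.14, -1.23 and -1.35). Of the other class II genes, 1 was higher in M1 and 2 did not pass. After quantile normalization *H2-Aa* (-0.87, adjusted p = 0.054) and *Cd74* (-0.44, adjusted p = 0.36) lost that call. M2 replicate 1 was the highest library for all 3 genes. Without replicate 1 the unswitched differences were -0.24, -0.39 and -0.75, with adjusted p of 0.67, 0.48 and 0.15, and the count of genes of opposite sign fell from 112 to 47, of which 42 were shared. The difference of the differences was still positive in 4 of 6 class II genes without replicate 1 (median 2.7) against all 6 with it (median 3.6). The fall of M1 → M2 below M2 held in 4 of 6 without replicate 1. With all libraries, 10.4% of all genes had a positive difference of the differences. Nothing particular to class II is read from its counts between unswitched cells.

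The other genes of opposite sign with the largest changes were *Timp1*, *Pltp*, *F10*, *Ctsk* and *Atp8b4*. *Timp1*, an inhibitor of metalloproteases, was at 7.31, 40.1 and 25.4 FPKM in M2 → M1 and 2.01, 7.15 and 3.31 FPKM in M1 → M2 libraries (2.14, adjusted p = 0.0015), against 0.695, 1.04 and 0.37 FPKM in M1 and 19.9, 39.2 and 43.7 FPKM in M2. The highest M1 → M2 library came close to the lowest M2 → M1 library. *Pltp*, the phospholipid transfer protein, differed by 1.74 between the switches (adjusted p = 0.013) and by -4.16 between unswitched cells, and its first call was lost without replicate 1 (adjusted p = 0.094) and without M1 → M2 replicate 1 (0.98, adjusted p = 0.24). Coagulation factor X (*F10*, 1.66) and cathepsin K (*Ctsk*, 1.38) lost theirs without replicate 1 (adjusted p = 0.061 and 0.064). The lipid flippase *Atp8b4* was lower in M2 → M1 (-1.31, adjusted p = 1.5e-06) and higher in M1 than in M2 (1.22).

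Both switches remained apart from unstimulated macrophages of the same age. M2 → M1 differed from M0 in 4300 genes (51.8%) and M1 → M2 in 2320 genes (27.9%), values that share the M0 libraries and are given side by side. More were higher than lower (2480 and 1820, 1435 and 885), but quantile normalization gave 1924 and 2601 for M2 → M1 and 1243 and 1198 for M1 → M2. G2 and M phase genes were lower than in M0 in both, 43 of 46 in M2 → M1 (median -1.39) and 38 of 46 in M1 → M2 (median -0.99). Without replicate 1 the second count was 19. Of all 8307 genes, 1820 were lower in M2 → M1 and 885 in M1 → M2. MHC class I processing was higher in both, 14 and 12 of 14. Antiviral genes were higher in 29 and 25 of 29, with medians of 4.17 and 1.1. Of all 8307 genes, 2480 were higher in M2 → M1 and 1435 in M1 → M2.

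The difference at 96 h was reached gradually. At 1 h after the switch 5631 genes (67.8%) differed between the same 2 groups. Of the 3461 genes called at 72 h, 2726 (78.8%) then had the opposite sign and 133 (3.84%) their final sign. The share with the final sign was 9.04% at 2 h, when 68.4% of all genes differed, and grew to 26% by 4 h (70.9% of all genes) and 38% by 6 h (69.8%). It was 51.8% at 12 h (65.5%), and by 24 h it had reached 63.5% (54.3%). Of the 2726 genes that turned, 73 were first called with the final sign at 2 h. Another 449 followed at 4 h and 444 at 6 h, then 572 at 12 h and 460 at 24 h, and the last 728 only at 72 h. These times are limited by the sampling and by the test at each time.

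**Figure D4:**
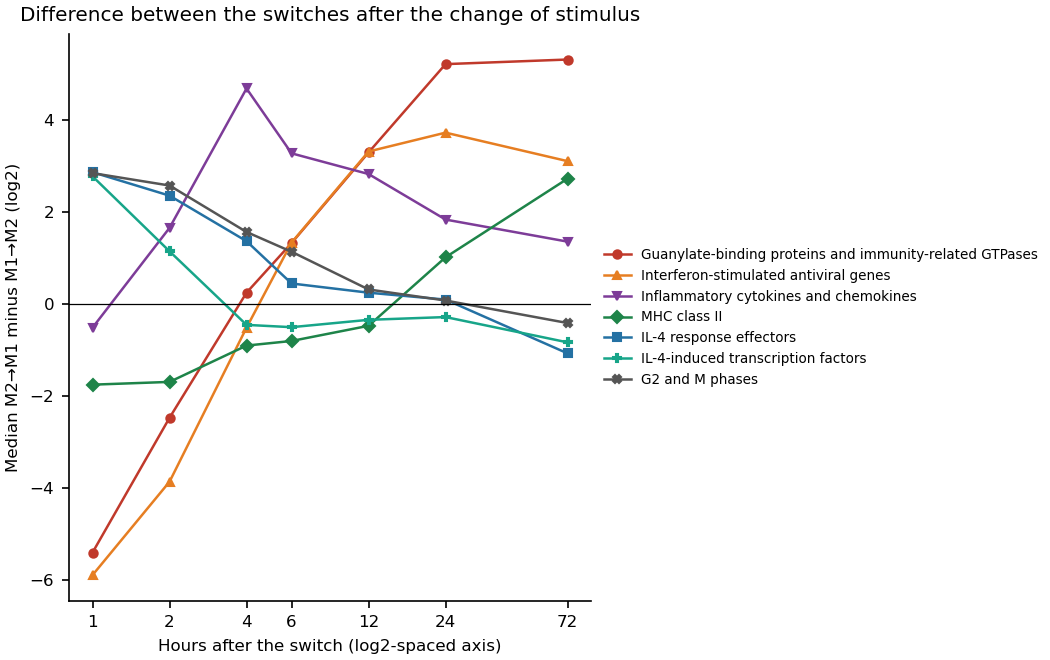
Median log2 difference, M2 → M1 minus M1 → M2, of 7 gene lists at 1, 2, 4, 6, 12, 24 and 72 h after the switch. Cytokines are above 0 from 2 h (1.66), antiviral genes from 6 h (1.34) and MHC class II from 24 h (1.02), and IL-4 effectors go below 0 only at 72 h (-1.07).

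Genes turned at very different times. *Cxcl10* had its final sign by 2 h. *Nos2* rose from 0.15 FPKM at 1 h to 756 FPKM at 4 h and 2590 FPKM at 12 h in M2 → M1 cells and declined to 483 FPKM at 72 h, while in M1 → M2 cells it fell from 607 to 30.7 FPKM by 12 h and 1.05 FPKM by 72 h (group means). *Pparg* turned at 4 h, as did *Egr2*, which did not pass at 6 h (-0.52, adjusted p = 0.21) and passed again from 12 h. *Gbp2* turned at 6 h, and *Irf7*, *Mrc1*, *Tfrc* and *Arg1* at 12 h. *Arg1* did not pass at 24 h (-0.9, adjusted p = 0.15). *Mrc1* averaged 50 FPKM in M2 → M1 and 149 FPKM in M1 → M2 at 12 h. *Ly6a*, *Ccl5* and *H2-Eb1* turned at 24 h. *Ccl5* was still at 2260 FPKM in M1 → M2 cells at 24 h and 370 FPKM at 72 h, and *H2-Eb1* fell there from 114 FPKM at 1 h to 28.6 FPKM at 24 h and 2.74 FPKM at 72 h. *Itgax*, *Chi3l3* and *Mgl2* were first called with their final sign at 72 h, although *Chi3l3* was already negative at 24 h (-0.79, adjusted p = 0.091). *Itgax* fell in M2 → M1 cells from 212 FPKM at 1 h to 60.2 FPKM at 24 h and 1.92 FPKM at 72 h, and *Chi3l3* in M1 → M2 cells rose from 0.454 FPKM at 1 h through 469 FPKM at 12 h to 2860 FPKM at 72 h. *Retnla* was called higher in M2 → M1 cells at every time from 1 h to 24 h and had no call at 72 h. It stood at 6130 FPKM at 1 h, 2510 FPKM at 24 h and 109 FPKM at 72 h in M2 → M1 cells, and at 0.0642, 3.97 and 91.5 FPKM in M1 → M2 cells. *Tnf* was higher in M2 → M1 at every time, by 4.19 at 1 h, 5.66 at 4 h and 2.2 at 72 h. Compared with the cells before the switch, 2768 of the 2875 genes called both at 96 h and between 24 h M1 and M2 (66.4% of all genes) had the sign of the stimulus in the medium (96.3%) and 107 the opposite one.

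**Figure D5:**
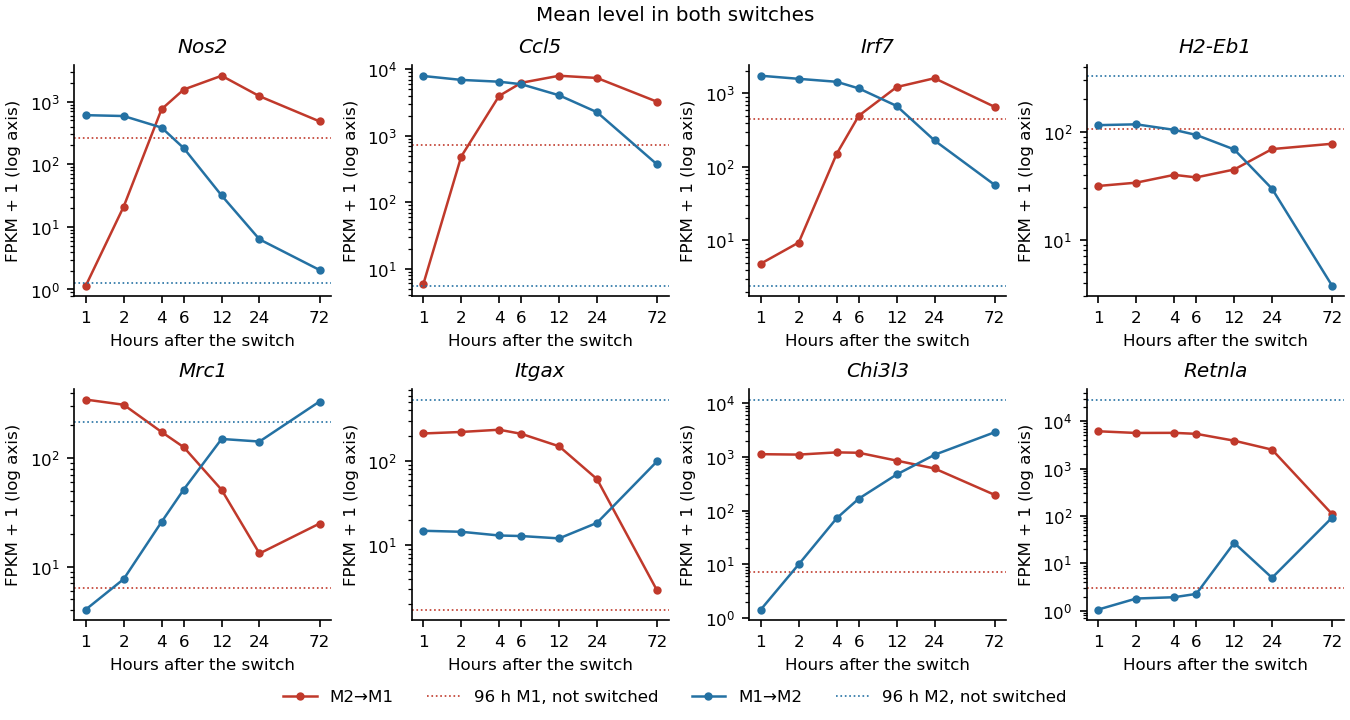
Mean FPKM + 1 (log axis) of 8 genes at 1 to 72 h after the switch in M2 → M1 and M1 → M2 cells, with dotted lines at the 96 h M1 and M2 means. The curves of *Nos2* cross between 2 and 4 h and those of *Chi3l3* between 12 and 24 h, and the curves of *Retnla* meet at 109 and 91.5 FPKM at 72 h.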

How the data were processed

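Expression was taken from the deposited bulk RNA-seq matrix of 145 libraries. Per the labels and the study's methods, the authors aligned reads to mm10 with TopHat2 2.0.14, computed FPKM with Cuffnorm 2.2.2, kept the 8307 genes that reached 10 FPKM in any sample and deposited log10 values of FPKM + 1. RNA was Trizol-extracted and libraries were made with a TruSeq kit whose strand handling is not given in the sources used here, so overlapping and antisense genes cannot be told apart. Sequencing depth is unknown.

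Values were converted to FPKM and tested as log2(FPKM + 1) with limma 3.58.1 in R 4.3.3: one fit of 48 group means over all 145 libraries, with a mean-variance trend, two-sided moderated tests and Benjamini-Hochberg adjustment over 8307 genes (threshold 0.05, residual degrees of freedom 97). Nothing was filtered. The fit was tested on simulated data for the comparison of the opposite switches over 8307 genes: of 50 changed genes per size it recovered 46% at a log2 change of 0.585, 94% at 1, 98% at 2 and 100% at 3, with 8 false calls. The simulation changed 200 genes and drew independent noise of equal spread in every group. It held no shared replicate component, so it does not measure the false calls in the real data.

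Groups came from the labels. Replicate numbers paired the stimulated samples at 96 h. Deviations of same-numbered libraries from their group means correlated between 0.334 and 0.377 for the opposite switches. Every pair was above 0.1 in the comparisons among 96 h switched, M1 and M2 groups. The numbers did not pair with M0, where the lowest correlation was -0.0873 for M2 → M1 and -0.217 for M1 → M2. Between the switches at 4 h the lowest was -0.284. The pairing comes from the data and not from a stated batch. The fit without the block is the main one, as no block is given in the study's methods.

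The members and gene lists (27 pathways and 10 cell types) were chosen with earlier results of these data known. Genes named by rule were 8 that the study names, the 10 largest changes in each direction between the switches (at least 20 FPKM in 1 group, libraries not overlapping, predicted genes left out), up to 4 members of each list with up to 2 against its majority, the 6 largest in each direction for the other 96 h contrasts, and the 8 largest of opposite sign. Other genes were chosen after their values were seen. Promoters matched 22 of 27 named genes in RefSeq (GRCm38.p6), with *Chi3l3* listed there as *Chil3*. Alternatives were other pseudocounts (0.1 and 5 FPKM), filters on low values, quantile normalization, rescaling, no trend, a fit of the compared groups only, the replicate block, linear FPKM, leaving out libraries and, chosen after seeing the data, unswitched references at 48 h. Single-cell and ATAC-seq files of the series were not used here. Some members of the lists and 1 searched motif are not reported here.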

Additional observations from a re-analysis of the deposited data

Results flagged for a closer look

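In the 96 h M0 group, 7 of 53 genes tested had a library far from the other 3 by Dixon's ratio, which chance gives in about 1 in 20 groups. The highest library stood apart for *Ly6a* (2.29 FPKM against 0.654 to 0.795, ratio 0.914), *Gbp4* (0.26 against 0.00764 to 0.0362, ratio 0.887), *Saa3* (8.82 against 0.428 to 1.12, ratio 0.917), *Ccl5* (5.86 against 1.1 to 1.48, ratio 0.921), *Ctsk* (22.2 against 11.2 to 12.8, ratio 0.851) and *Nfkb1* (38.8 against 36.6 to 36.9, ratio 0.857). The lowest stood apart for *F10* (6.52 against 10.3 to 10.7, ratio 0.91).

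The switched and unswitched differences were unequal, by limma's test of the difference itself, in 26 of 45 named genes, beside 19% of all genes. Many of the 45 were named for being largest in this contrast or of opposite sign, so the count is a description and no support. IL-4 response genes had positive values, *Retnla* 13.91, *Ear11* 11.8, *Ccl24* 9.09, *Fn1* 7.53, *Chi3l3* 7.21, *Mgl2* 7.11, *Tmem26* 3.19, *Itgax* 3.1 and *Arg1* 2.65 on the log2 scale. So had the class II genes *H2-Eb1* (5.51), *H2-Aa* (5.35) and *Cd74* (3.9), and *Timp1* (6.45), *Pltp* (5.9), *F10* (4.8) and *Ctsk* (3.92). Values were negative for the interferon and acute-phase genes *Saa3* (-5.31), *Ccl5* (-4.27), *Irf7* (-3.96), *Rtp4* (-3.82), *Ccl12* (-3.49) and *Gbp4* (-1.51), and for *Stab1* (-3.75), *Atp8b4* (-2.53), *Tfrc* (-1.8) and *Angptl2* (-1.01). *Tfrc* and *Angptl2* thus separated the switches more than they separated unswitched cells.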

How the results depend on the processing

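The difference between the opposite switches kept its count within 1.5 times under every alternative run. Over 71 results of single genes, 54 kept direction and call in all alternatives. Of 1098 recomputed values 1060 did so, 35 lost the call, 1 gained it and 2 reversed. *Retnla* between the switches ran from -0.75, a reversal, without M1 → M2 replicate 1 to 1.6 without M2 → M1 replicate 1, and *Ifi27* in M2 → M1 against M1 to 0.01 with the 48 h reference. Of 177 recomputed counts 166 stayed within 1.5 times.

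With only the compared groups in the fit, 1049 genes passed for the difference of the differences and 40 for M2 → M1 against M1. In that fit *Gbp2b*, *Timp1*, *Ms4a8a*, *Serpina3f*, *Stab1*, *Ifi27*, *Cd14* and *Cyb5r1* lost their call against M1 (adjusted p 0.055, 0.067, 0.13, 0.089, 0.17, 0.13, 0.084 and 0.12), and *Ccl12* that of the difference of the differences (adjusted p = 0.062). With 48 h references the same counts were 2478 and 1891. With replicate number as a block, 1597 genes passed for M2 → M1 against M1, and the other counts of genes past the test in 1 comparison moved by less than 1.5 times. Leaving out libraries gave 691 to 1231 genes for the difference of the differences, 306 to 867 for M2 → M1 against M1, 924 to 1312 for M1 → M2 against M2 and 1525 to 1832 for M1 → M2 against M0. The cause was not tested, beyond the smaller number of libraries. On linear FPKM the Jensen-Shannon distances were 0.286 between the switches and 0.406 between M1 and M2, and the positions 1 and 0.85. The M2 → M1 position ranged from 0.915 to 0.946 without single replicates. Genes of opposite sign numbered 47 to 90 without a replicate, 60 with the compared groups alone and 184 with the block, against 112. Rescaling factors were 0.875 to 1.12. Depth is unknown, so values near 0 FPKM carry no counting error.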
